A study of Mus musculus with 6 samples.

Results

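The genes described are 10 of the 55421 gene identifiers counted in splenic monocytes, chosen by name as regulators of the JAK-STAT pathway. They are the inhibitors *Socs1*, *Socs2*, *Socs3* and *Cish*, the transcription factors *Stat3*, *Stat4*, *Stat5a* and *Stat5b*, the kinase *Jak2* and the repressor *Bcl6*. All 10 had enough reads to be tested, as had 13849 genes in all. The study compared 3 mice with intact IL-4Rα (IL-4Rα+/+) with 3 mice lacking it (IL-4Rα-/-), all of the C57BL/6 strain, with 1 RNA library per mouse. IL-4Rα is the receptor chain through which cells sense the cytokines IL-4 and IL-13, and the deletion was carried by every cell of the IL-4Rα-/- animals, not by monocytes only. The labels name no treatment and give no age, and the paper gives only an age range, for the animals of its in vivo studies. Monocytes were enriched from splenocytes by negative selection, in which antibodies and magnetic beads remove the other leukocytes.

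Cytokine receptors of this class carry Janus kinases (JAKs) on their inner tails. Binding of a cytokine lets the JAKs phosphorylate each other, the receptor and the STAT proteins, which then pair, enter the nucleus and switch on genes. Among those genes are the SOCS proteins and CISH, which bind the receptor or the kinase and dampen the signal, so that their transcripts are widely used as a readout of recent cytokine signaling. IL-4 signals mainly through STAT6, whereas GM-CSF, a growth factor of myeloid cells, uses JAK2 and STAT5.

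The reads assigned to genes numbered 26807281 to 29033297 per library. Levels are given as CPM, the counts of a gene scaled to a library of fixed size, with the TMM factors of edgeR. The summed levels of marker lists were scaled to the reads assigned to genes, without these factors. The markers of the labelled cell type were present, and all 14 monocyte markers were tested. Their summed level was 20461 to 26322 CPM in IL-4Rα+/+ and 22805 to 27146 CPM in IL-4Rα-/- libraries. Of these markers, 9 were lower and 5 higher in IL-4Rα-/- libraries, with a median log2 fold change of -0.21. At an unadjusted edgeR p under 0.05 there were 0. The targeted gene *Il4ra* had 137, 128 and 177 CPM in the IL-4Rα+/+ and 27.9, 79.4 and 31.8 CPM in the IL-4Rα-/- libraries. The genotypes did not overlap, but IL-4Rα-/- replicate 2 kept more *Il4ra* reads than the other two knockout libraries. The counts cover the whole gene, so that reads from parts that were not deleted are included. Its log2 fold change was -1.67 (SE 0.41), with an adjusted p-value of 0.618 in edgeR's quasi-likelihood test and of 0.0111 in DESeq2, and the exact permutation p was 0.10, the smallest that 3 against 3 libraries can give. *Xist*, the transcript of the inactive X chromosome, was at 553 CPM in IL-4Rα+/+ replicate 1 and 457 CPM in IL-4Rα-/- replicate 3. It was at 3.73 CPM or less in the others, so that each genotype held 1 *Xist*-high library. Genes of the Y chromosome, *Ddx3y*, *Eif2s3y* and *Kdm5d*, were at 0.135 CPM or less in the *Xist*-high libraries. In the others they were at 37.9 CPM or more, and the model did not include sex.

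The start regions of 3 members held the letters TTCNNNGAA, the GAS element to which STAT dimers bind. Those 3 members were chosen for display because their windows held it. The window of *Socs1*, another SOCS gene, held 0 and is not shown. The windows are RefSeq promoters of the GRCm38.p6 build, 300 bases long, from 250 bases before to 50 bases after an annotated start. Capitals mark the TTCNNNGAA matches, and each sequence reads 5′ to 3′ on the strand of the gene. *Cish* is shown at chr9:107296409-107296708 on the plus strand, *Socs3* at chr11:117969317-117969616 on the minus strand, and *Bcl6* at its second annotated start, chr16:23981234-23981533 on the minus strand.
Cish: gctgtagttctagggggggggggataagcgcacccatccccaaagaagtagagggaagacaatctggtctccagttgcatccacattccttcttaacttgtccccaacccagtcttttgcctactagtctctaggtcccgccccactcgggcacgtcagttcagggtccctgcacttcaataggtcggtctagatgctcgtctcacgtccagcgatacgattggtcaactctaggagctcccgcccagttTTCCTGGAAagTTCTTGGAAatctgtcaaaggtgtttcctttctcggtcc
Socs3: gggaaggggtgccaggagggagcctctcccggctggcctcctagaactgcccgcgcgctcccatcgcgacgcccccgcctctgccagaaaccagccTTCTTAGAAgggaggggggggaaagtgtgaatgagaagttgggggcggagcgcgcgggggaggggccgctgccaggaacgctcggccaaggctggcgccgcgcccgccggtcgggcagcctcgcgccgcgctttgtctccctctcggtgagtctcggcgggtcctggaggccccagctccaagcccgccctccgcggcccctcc
Bcl6: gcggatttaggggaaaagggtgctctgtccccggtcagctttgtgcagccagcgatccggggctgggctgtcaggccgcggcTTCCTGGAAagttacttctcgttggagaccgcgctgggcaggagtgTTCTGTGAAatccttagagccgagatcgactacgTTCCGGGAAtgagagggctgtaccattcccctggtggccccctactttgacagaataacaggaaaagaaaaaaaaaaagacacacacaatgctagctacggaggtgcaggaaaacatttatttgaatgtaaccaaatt

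The *Cish* window held 2 such elements, TTCCTGGAA and TTCTTGGAA, 0 and 11 bases after the annotated start. *Socs3* held 1, TTCTTAGAA, at -154 from the start. The second *Bcl6* window held 3, TTCCTGGAA, TTCTGTGAA and TTCCGGGAA, at -168, -122 and -88, and the first *Bcl6* window held 1, TTCTCAGAA, at -118. Of the 10 members, 9 had a window and 13 windows were searched, of which 4 held TTCNNNGAA and 0 held the wider GAS element that STAT6 binds, in which TTC and GAA lie 4 bases apart. Both motifs read the same on either strand. Among all 32851 mouse windows of this length, 8.30% held TTCNNNGAA, 0.457% held it 2 or more times, and 6.95% held the wider element. A match of letters is a description of the window and does not show that a factor binds there.

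No member passed the adjusted threshold of 0.15 in edgeR, and 0% of all genes tested did. At an unadjusted p under 0.05, 1 of the 10 members was found, *Stat5a*, where the share of all genes tested was 8.09%. DESeq2 called 0 members at the adjusted threshold, against 0.571% of all the genes it tested, and 0 members had an unadjusted p under 0.05 there. The CPM ranges of the genotypes did not overlap for 2 members, *Stat5a* and *Stat5b*, where the share of all genes was 15.5%. Both were lower in IL-4Rα-/- libraries, a pattern found in 7.87% of all genes. In all, 6 members had a lower and 4 a higher mean level on the log2 scale, and the median log2 fold change was -0.13 for the members and 0.01 for all genes tested. Since RNA of a whole cell preparation was sequenced, fewer cells of a type and less RNA per cell cannot be told apart.

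**Figure D1:**
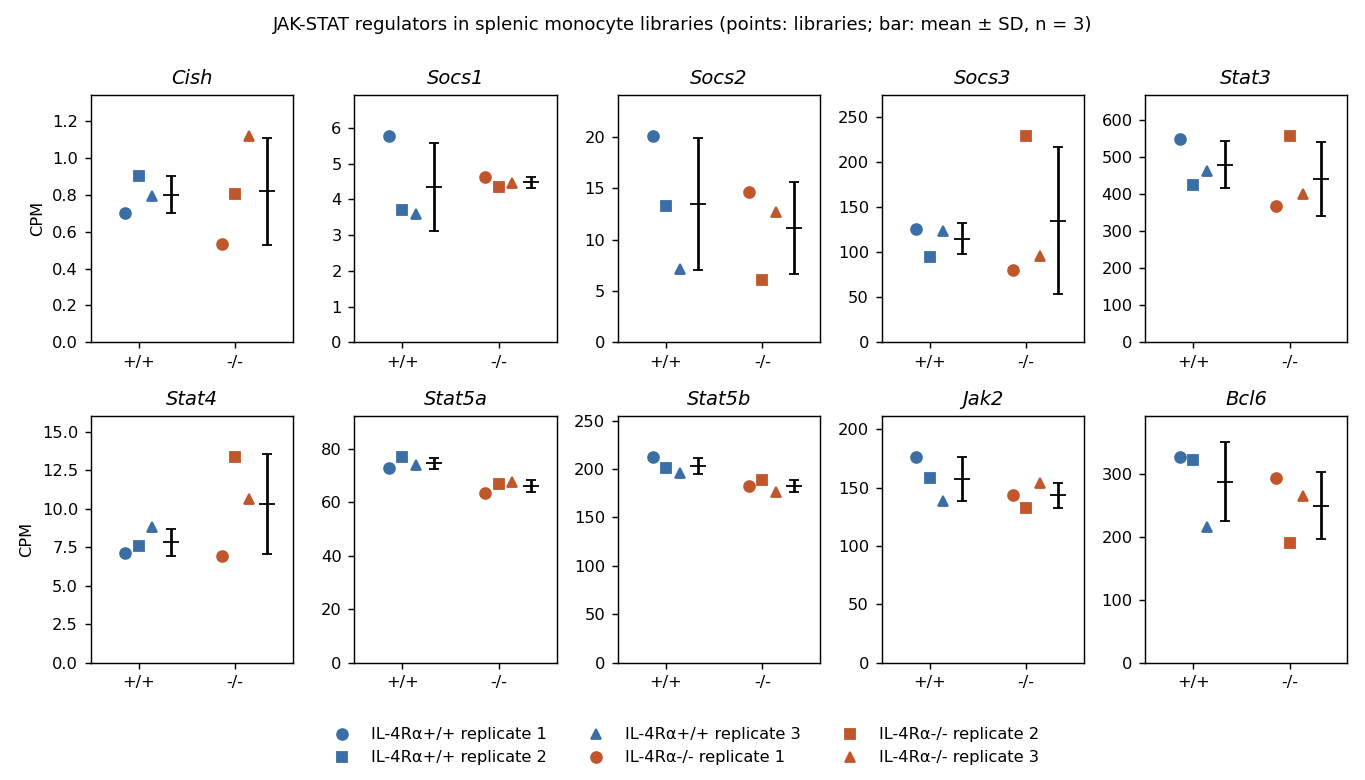
Level of each of the 10 members in CPM (vertical axes, from 0) in the IL-4Rα+/+ and IL-4Rα-/- libraries. Points are single mice and lines the group means. Only *Stat5a* and *Stat5b* have groups that do not overlap, and the high *Socs3* point of 229 CPM is IL-4Rα-/- replicate 2.

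Among the inhibitors, *Socs3*, whose product blocks JAK activity at receptors of the IL-6 family and the G-CSF receptor, was the most abundant. It had 126, 95.1 and 124 CPM in the IL-4Rα+/+ and 80.5, 229 and 96.2 CPM in the IL-4Rα-/- libraries. The knockout group held both the lowest and the highest library, and the groups overlapped. In edgeR, *Socs3* had a log2 fold change of 0.23 (SE 0.39, 95% interval -0.70 to 1.17), with an adjusted p of 0.848. A single library set this direction, and without IL-4Rα-/- replicate 2 the log2 fold change of *Socs3* was -0.38 (SE 0.16), with an adjusted p of 0.851 in edgeR.

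*Socs1*, an inhibitor of interferon and IL-4 signaling, was low. It had 5.76, 3.69 and 3.59 CPM in the IL-4Rα+/+ and 4.64, 4.34 and 4.46 CPM in the IL-4Rα-/- libraries. The 3 knockout libraries lay inside the range of the IL-4Rα+/+ libraries, of which replicate 1 was the highest. Its log2 fold change was 0.04 (SE 0.23, 95% interval -0.51 to 0.60; edgeR adjusted p = 0.957). It turned to -0.06 without IL-4Rα+/+ replicate 2 and to -0.08 without IL-4Rα+/+ replicate 3.

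*Socs2*, best known as a brake on growth hormone signaling, had 20.03, 13.3 and 7.13 CPM in the IL-4Rα+/+ and 14.6, 6.06 and 12.6 CPM in the IL-4Rα-/- libraries. IL-4Rα+/+ replicate 1 was the highest and IL-4Rα-/- replicate 2 the lowest library, and the groups overlapped. The log2 fold change was -0.28 (SE 0.45, 95% interval -1.35 to 0.79; edgeR adjusted p = 0.845), and it turned to 0.12 without IL-4Rα+/+ replicate 1 and to 0.02 without IL-4Rα-/- replicate 2.

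*Cish*, a STAT5 target that in turn limits STAT5 activation, was close to the limit of detection. It had 20, 25 and 21 counts, or 0.703, 0.904 and 0.793 CPM, in the IL-4Rα+/+ and 15, 23 and 33 counts, or 0.536, 0.806 and 1.12 CPM, in the IL-4Rα-/- libraries. The IL-4Rα-/- group held both the lowest and the highest value. Between genotypes the log2 fold change was 0.04 (SE 0.35, 95% interval -0.80 to 0.87; edgeR adjusted p = 0.977). Differences inside this wide interval could not be told from none. It turned to -0.05 without IL-4Rα+/+ replicate 1 and to -0.25 without IL-4Rα-/- replicate 3.

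Mean levels of both STAT5 genes were slightly lower in IL-4Rα-/- libraries, and neither difference passed adjustment. Ranges apart and lower in IL-4Rα-/- libraries were found for 7.87% of all genes tested. *Stat5a* and *Stat5b* encode near-identical factors that carry the signals of GM-CSF, IL-3, IL-5 and other growth factors. *Stat5a* had 72.7, 77.0 and 74.0 CPM in the IL-4Rα+/+ and 63.4, 66.9 and 67.7 CPM in the IL-4Rα-/- libraries. Each knockout library lay below each IL-4Rα+/+ library. The means were 74.5 ± 2.19 CPM (SD, n = 3) and 66.0 ± 2.32 CPM (SD, n = 3), and the log2 fold change was -0.18 (SE 0.07, 95% interval -0.33 to -0.02). The edgeR p-value was 0.0349 unadjusted and 0.618 adjusted, and the two-sided exact permutation p was 0.10, the smallest possible.

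*Stat5b* had 212, 201 and 196 CPM in the IL-4Rα+/+ and 183, 189 and 176 CPM in the IL-4Rα-/- libraries. These groups were also apart. The log2 fold change was -0.15 (SE 0.07, 95% interval -0.32 to 0.02), with an edgeR p-value of 0.0727 unadjusted and 0.623 adjusted and an exact permutation p of 0.10. Once the dependence of the counts on transcript length was taken out, the groups of *Stat5b* overlapped and its log2 fold change was -0.11 (SE 0.08), whereas *Stat5a* stayed apart at -0.18 (SE 0.07). The ratio of *Stat5a* to *Stat5b* was 0.342, 0.383 and 0.378 in the IL-4Rα+/+ and 0.347, 0.354 and 0.384 in the IL-4Rα-/- libraries, and these values overlapped.

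The *Stat5a* and *Stat5b* genes lie side by side on chromosome 11 of GRCm38, *Stat5b* at 100780731 to 100850724 on the minus strand and *Stat5a* at 100859351 to 100885169 on the plus strand. Of all stretches of 75 bases, the read length, 6.15% in *Stat5a* transcripts and 7.53% in *Stat5b* transcripts occurred in the other gene, and uniquely mapped reads cannot be assigned from those. The 3′ end of *Stat5a* also overlaps that of *Stat3*, at 100885098 to 100939540 on the minus strand.

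RNA typical of some other cells differed between the same libraries. The summed level of erythroid markers was 76.3 to 144 CPM in IL-4Rα+/+ and 190 to 460 CPM in IL-4Rα-/- libraries, and 9 of the 11 tested had an unadjusted edgeR p under 0.05, all higher. That of eosinophil, basophil and mast cell markers was 87.3 to 96.2 and 138 to 227 CPM, with 8 of 11 at such a p, all higher. That of red pulp macrophage markers was 3549 to 4130 and 4821 to 7439 CPM, with 7 of 10 at such a p, all higher. None of the genes in these lists was at 0 in all libraries. These 3 summed levels separated the genotypes as the STAT5 genes did, in the opposite direction, and their part in the STAT5 values was not tested. The summed levels of B and plasma cell, dendritic cell, T and NK cell, neutrophil and platelet markers overlapped between the genotypes.

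*Stat3*, which carries IL-6 and IL-10 signals, was the most abundant member. It had 549, 424 and 463 CPM in the IL-4Rα+/+ and 368, 555 and 400 CPM in the IL-4Rα-/- libraries. As for *Socs3*, the knockout group held both the lowest library, replicate 1, and the highest, replicate 2. The fold change of *Stat3* was -0.12 on the log2 scale (SE 0.18, 95% interval -0.54 to 0.30; edgeR adjusted p = 0.831), and without IL-4Rα-/- replicate 2 it was -0.32 (SE 0.13; edgeR adjusted p = 0.851).

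*Stat4*, the mediator of IL-12 signals in lymphocytes, had 7.13, 7.56 and 8.80 CPM in the IL-4Rα+/+ and 6.96, 13.4 and 10.6 CPM in the IL-4Rα-/- libraries. Replicates 2 and 3 of the knockout lay above all other libraries and replicate 1 below them. The log2 fold change was 0.40 (SE 0.25, 95% interval -0.20 to 1.00; edgeR adjusted p = 0.661), which was 0.17 without IL-4Rα-/- replicate 2 and was 0.61 without IL-4Rα-/- replicate 1. Of the 75-base stretches of *Stat4* transcripts, 25.9% also occurred in the transcript of *Gm28177*, so that its level is uncertain. T and NK cell markers, summed, were at 53.4 to 147 CPM in IL-4Rα+/+ and 50.7 to 141 CPM in IL-4Rα-/- libraries, and 0 of 14 had an unadjusted edgeR p under 0.05.

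*Jak2*, the kinase of the receptors for GM-CSF, IL-3 and interferon-γ, had 176, 158 and 138 CPM in the IL-4Rα+/+ and 144, 133 and 154 CPM in the IL-4Rα-/- libraries. The groups overlapped. For *Jak2* the log2 fold change was -0.14 (SE 0.11, 95% interval -0.40 to 0.13; edgeR adjusted p = 0.727). *Bcl6*, a transcriptional repressor that competes with STAT factors for DNA in several cell types, had 328, 322 and 216 CPM in the IL-4Rα+/+ and 294, 192 and 265 CPM in the IL-4Rα-/- libraries. IL-4Rα+/+ replicate 3 and IL-4Rα-/- replicate 2 were the low libraries, 1 in each genotype. The difference of *Bcl6* was -0.21 on the log2 scale (SE 0.21, 95% interval -0.72 to 0.31; edgeR adjusted p = 0.770).

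**Figure D2:**
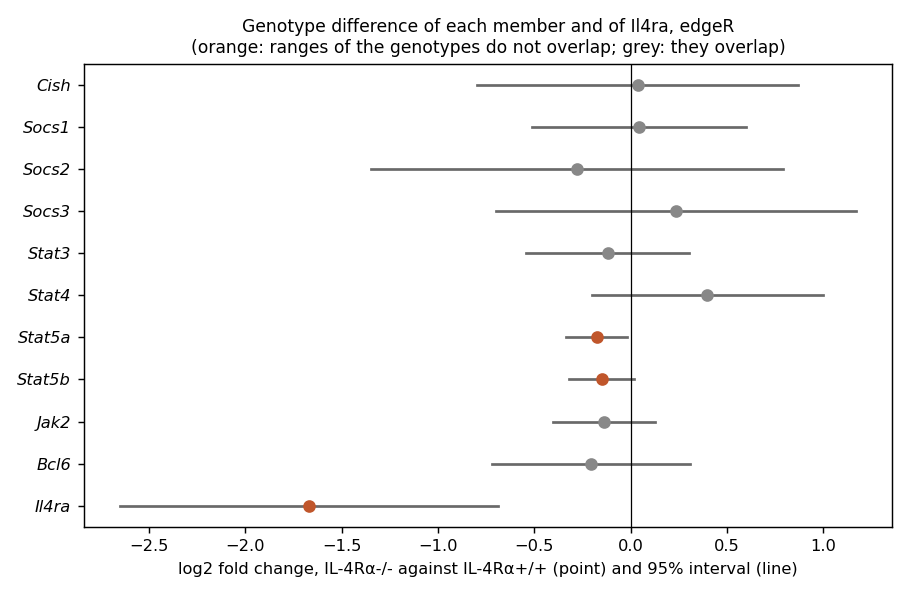
Log2 fold change of each member and of *Il4ra*, IL-4Rα-/- against IL-4Rα+/+ (horizontal axis), from edgeR, with 95% intervals. The interval of *Stat5a*, -0.33 to -0.02, is the only one among the members that leaves out 0, and *Il4ra* lies at -1.67.

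The members differed in how much of their spread lay between the genotypes. On the log2 scale, the genotypes held 84.0% of the variance over the 6 libraries for *Stat5a* and 73.3% for *Stat5b*. By unadjusted edgeR p, these 2 genes ranked only 759 and 1609 among the 13849 genes tested. The next shares of variance were those of *Stat4* with 27.1%, *Jak2* with 23.3% and *Bcl6* with 12.4%. The remaining members had less than that, and the lowest were *Socs3* with 0.784% and *Cish* with 0.0686%. The highest library was IL-4Rα+/+ replicate 1 for 5 of the 10 members and IL-4Rα-/- replicate 2 for 3, where the shares of all genes tested were 21.6% and 24.8%. The lowest was IL-4Rα-/- replicate 1 for 5 and IL-4Rα-/- replicate 2 for 3, where the shares of all genes were 12.4% and 23.4%, and no test was made of these counts.

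Levels of different genes were compared per kilobase (kb) of the longest annotated transcript. In IL-4Rα+/+ libraries the order was *Stat3* at 79.3 CPM per kb, *Bcl6* at 73.4, *Socs3* at 45.0, *Stat5b* at 38.9, *Jak2* at 31.4, *Stat5a* at 18.8, *Socs2* at 3.18, *Stat4* at 2.63, *Socs1* at 1.49 and *Cish* at 0.170 CPM per kb. Neighbours in this order whose libraries overlapped were *Stat3* and *Bcl6*, *Socs3* and *Stat5b*, and *Socs2* and *Stat4*. In IL-4Rα-/- libraries the same genes led, from 72.9 CPM per kb for *Stat3* down to 0.174 CPM per kb for *Cish*, and *Stat4*, at 3.46 CPM per kb, stood before *Socs2*, at 2.62 CPM per kb. Those neighbours overlapped there too, as did *Bcl6* and *Socs3*, and *Socs2* and *Socs1*.

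**Figure D3:**
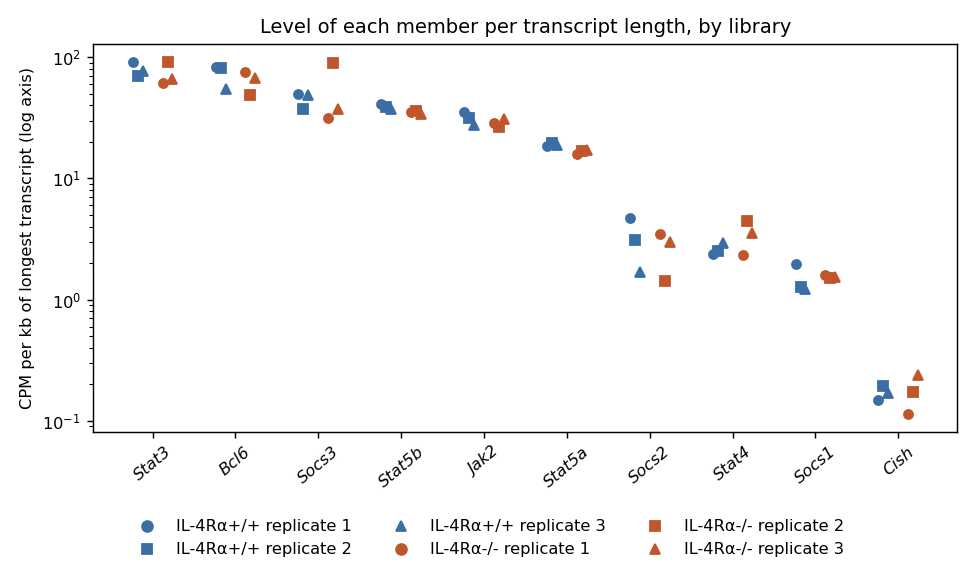
Level of each member in CPM per kb of its longest transcript (vertical log axis), with 1 point per library, coloured by genotype, and members ordered by level. *Stat3* and *Bcl6* lead in both genotypes, and *Cish*, at 0.170 and 0.174 CPM per kb, is the lowest.

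Within its family, *Socs3* had the largest share of the SOCS transcripts per kb in all 6 libraries. Its share of the summed CPM per kb of the 8 SOCS genes was 55.4%, 50.6% and 57.3% in the IL-4Rα+/+ and 45.2%, 73.2% and 50.3% in the IL-4Rα-/- libraries. The highest share was again that of IL-4Rα-/- replicate 2, and the groups overlapped. Among the 7 STAT genes the largest share was that of *Stat6*, the IL-4 factor, which made up 35.1% to 37.2% in IL-4Rα+/+ and 32.6% to 37.6% in IL-4Rα-/- libraries. *Stat5a* made up 5.26% ± 0.221 (SD, n = 3) and 4.90% ± 0.221 (SD, n = 3) of the STAT sum, and its groups overlapped on this scale, unlike in CPM.

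**Figure D4:**
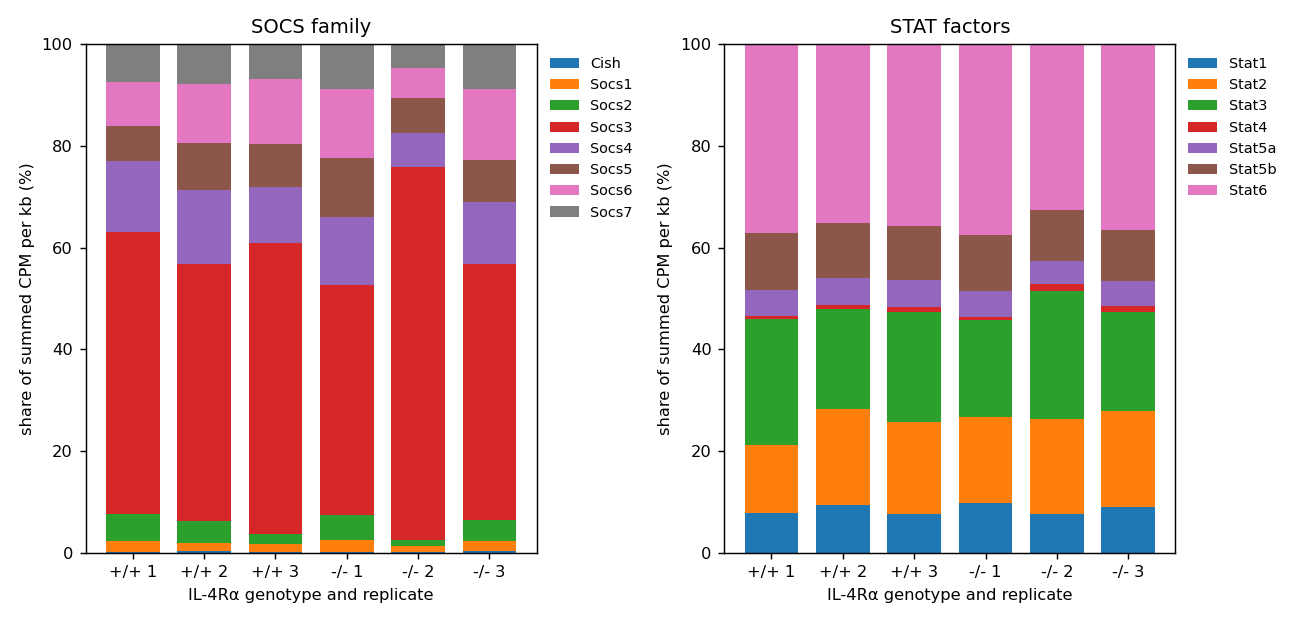
Share of each gene in the summed CPM per kb of the SOCS and STAT families (vertical axis, %), with 1 stacked bar per library. *Socs3* reaches 73.2% of the SOCS sum in IL-4Rα-/- replicate 2, and *Stat6* is the largest STAT share in all 6 libraries.

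The other genes of the pathway were counted on lists drawn up by their roles. Of 108 listed genes, 86 were tested, and 0 passed the adjusted threshold in edgeR. DESeq2 called 1, *Il4ra*. At an unadjusted p under 0.05 there were 11, 8 lower and 3 higher in IL-4Rα-/- libraries, where 4.37% and 3.72% of all genes tested were. Ranges did not overlap for 16, 12 lower and 4 higher, where 7.87% and 7.63% of all genes were.

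Upstream, the ligands were scarce: 6 of 22 were tested, 9 had 3 counts or fewer in every library, and 0 of the 6 had an unadjusted edgeR p under 0.05. Of the 27 receptors tested, 4 did, among them *Il4ra*. *Il21r*, the IL-21 receptor, had 45.8, 34.8 and 22.5 CPM in the IL-4Rα+/+ and 17.9, 17.5 and 23.0 CPM in the IL-4Rα-/- libraries, with a log2 fold change of -0.82 (edgeR adjusted p = 0.618), and its groups overlapped. *Epor*, the erythropoietin receptor, which was also on the list of erythroid markers described above, had a log2 fold change of 1.00 (edgeR adjusted p = 0.618). *Lepr*, the leptin receptor, was at 1.89 CPM or less in every library (log2 fold change 2.06; edgeR adjusted p = 0.618).

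Of the 4 JAK and 7 STAT genes, *Stat5a* alone had an unadjusted edgeR p under 0.05, but *Jak1* and *Stat6*, with a log2 fold change of -0.09 each, also had ranges that did not overlap, both lower. Among the 8 SOCS and 4 PIAS genes, which encode inhibitors at the receptor and in the nucleus, 0 had an unadjusted p under 0.05 and 0 had ranges apart. Of 11 phosphatases and adaptors, 2 did on both counts, *Ptprc*, the phosphatase CD45, at -0.23 and *Cbl*, a ubiquitin ligase, at -0.26 (edgeR adjusted p = 0.618 for both).

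Downstream, 2 of 14 STAT target genes had an unadjusted edgeR p under 0.05. *Irf1*, an interferon response factor, was lower, with a log2 fold change of -0.18, and *Ccnd2*, a cyclin, was higher, with 0.24. Of the 5 BCL6 relatives and corepressors tested, the corepressor gene *Ncor1* had a log2 fold change of -0.22 (edgeR adjusted p = 0.618). It had 284, 294 and 279.9 CPM in the IL-4Rα+/+ and 248, 232 and 258 CPM in the IL-4Rα-/- libraries, and its groups did not overlap.

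**Figure D5:**
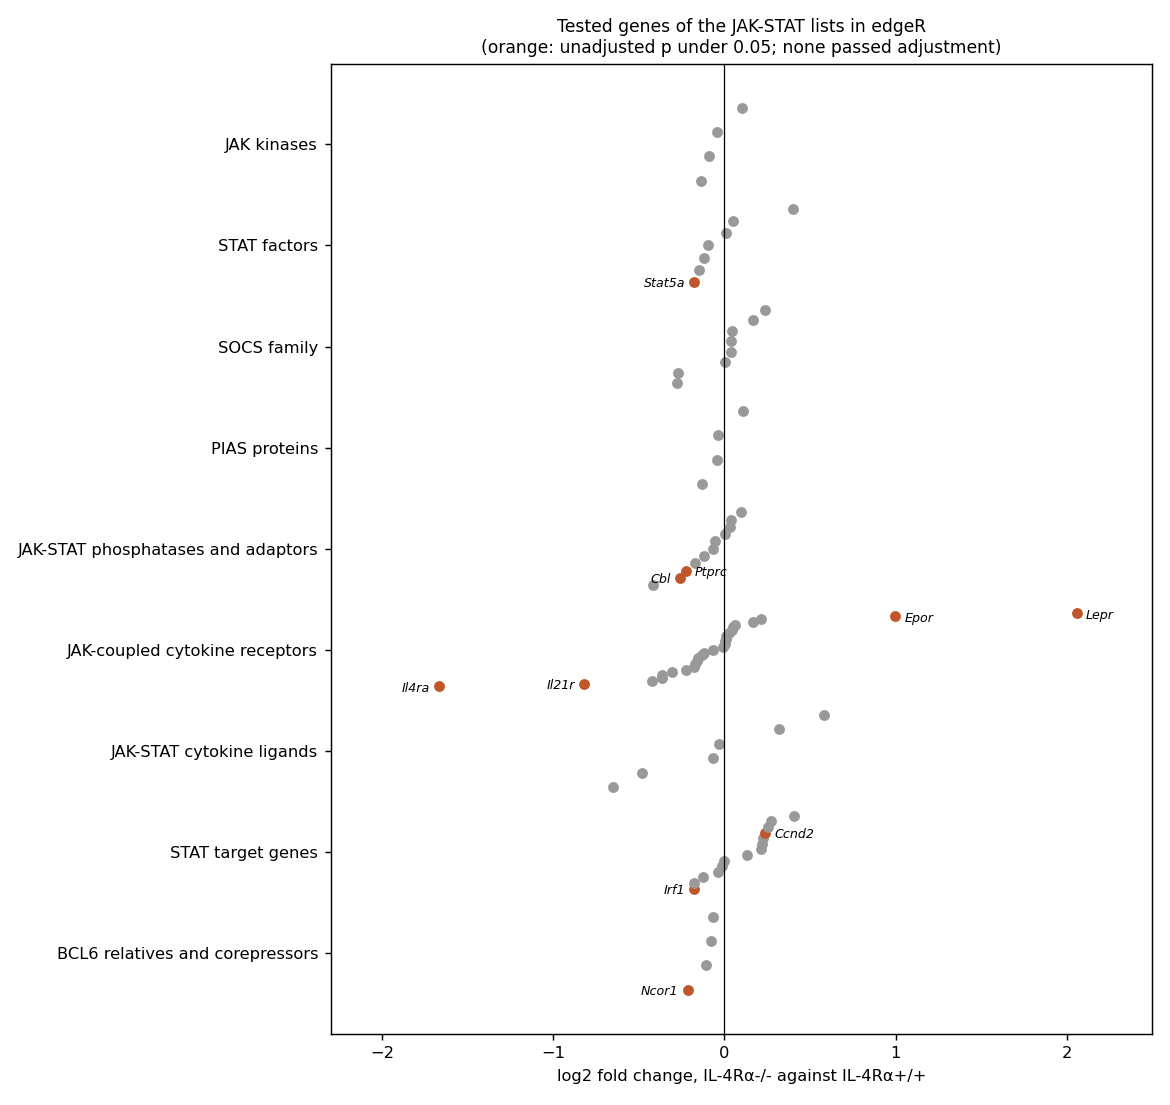
Log2 fold change, IL-4Rα-/- against IL-4Rα+/+ (horizontal axis), of tested genes of the pathway lists (rows), with 1 point per gene shown. The named genes in orange had an unadjusted edgeR p under 0.05, and none passed adjustment.

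For each member, the genes with the most similar profile were those with the smallest root mean square difference in log2 CPM over the 6 libraries, after each gene was centred on its mean. For *Stat5a* they included *Plcg2* and *Cnot1*, with differences of 0.02 each, against a standard deviation of 0.10 of *Stat5a* itself. For *Stat5b* they were *Tmem164*, *Ccnl1* and *Fgr*. The nearest to *Jak2* were *Ppp2r5c*, *Ttc38* and *Lrmp*, to *Bcl6* *Map4k3*, *Irak2* and *Ppp1cb*, and to *Stat3* *Trib1*, *Grk6* and *Zfp608*. Near *Socs2* were *Asprv1*, *Bcl2a1b* and *Stap1*. The profile of *Socs3* was less closely matched, with differences of 0.10 for *Ksr1*, 0.11 for *Gm44616* and 0.16 for *Ccdc96*. The nearest to *Stat4* were *Sbsn*, *Gm48529* and *Polr2k*, to *Socs1* *Gm15708*, *Rdh12* and *Tmem177*, and to *Cish* *Clcn2*, *Gm10167* and *Rassf7*. With 13849 genes and 6 libraries, close profiles arise among unrelated genes.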

How the data were processed

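Poly(A) RNA of splenic monocytes, from 3 mice of each genotype, was prepared with a kit that keeps the strand and read from 1 end over 75 bp. The authors deposited raw counts of reads per gene, made with STAR 2.6.1a on GRCm38. The submitters' processing notes also name bcl2fastq 2.19.1.403, RSEM and DESeq2 1.22.2. Which strand column was deposited is not given in the sources used here, so overlapping genes are uncertain. STAR's summary lines were left out of every test. In each library they held 1.32% to 1.66% of reads as unmapped, 8.30% to 9.35% as multimapping, 8.87% to 11.7% as outside genes and 1.39% to 1.52% as ambiguous.

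Genes were kept by filterByExpr with a minimum count of 10, normalized by TMM and tested by genotype in edgeR 4.0.16 (R 4.3.3; quasi-likelihood F-test, all 6 libraries). p-values were adjusted by the Benjamini-Hochberg method over all 13849 genes tested, with the study's threshold of 0.15. The fit was also run on simulated counts with planted differences far larger than those of the members. That run does not show how often differences as small as theirs would be found. DESeq2 1.42.0, other normalizations and filters, a block, removal of a loess trend with transcript length (span 0.5) and leaving out each library were alternatives. For single genes, all 20 labelings gave an exact permutation p (two-sided). The labels do not say whether the mice were littermates, although the paper describes littermates as the controls of its knockout lines. The p-values measure the spread between these mice.

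Symbols, positions and lengths came from a Gencode annotation of GRCm38 of another release than the authors', which held 55240 of the 55421 identifiers. The members and lists were chosen with earlier results of these data known. The genes named were the members, *Il4ra*, the listed pathway genes with an unadjusted p under 0.05 and the 3 genes nearest in profile to each member. Of these, 2 genes are not reported here. Other genes named with values were chosen after their values were seen.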

Additional observations from a re-analysis of the deposited data

How the results depend on the processing

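No member passed adjustment in edgeR or DESeq2 under any alternative run, at a threshold of 0.15 or 0.05. The count of members with an unadjusted p under 0.05 was 1, where 8.09% of all genes tested had such a p. It was 0 under upper quartile normalization (8.14% of all genes), in DESeq2 (4.70%), without a filter on low counts (5.41%) and with the replicate block (5.52%). With each library left out it was 0 to 1, where 4.44% to 12.1% of all genes had such a p. Among the runs with a library left out, the unadjusted p of *Stat5a* was under 0.05 only without IL-4Rα+/+ replicate 1. Without IL-4Rα-/- replicate 1 the 1 member found was *Stat4*, where the share of all genes was 4.50%. These shares are the background for so few members. The count of members with ranges apart, which was 2, was 1 after removal of the length trend, where 12.7% of all genes were apart, and 2 to 4 with each library left out. It was 4 without IL-4Rα+/+ replicate 3, where 36.9% of all genes were apart, and 2 or 3 without any other library, where 21.4% to 26.1% were. The 1 pathway gene called was *Il4ra*, by DESeq2. Of 142 values of single genes under the alternatives, 133 kept their direction and side of the threshold. The log2 fold change of *Cish* was -0.011 with the replicate block and -0.25 to 0.26 with a library left out. With a library left out it ranged from -0.075 to 0.30 for *Socs1*, -0.58 to 0.12 for *Socs2* and -0.38 to 0.50 for *Socs3*. The cause of these changes was not tested.

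To compare replicates of equal number across genotypes, each gene was centred on its mean within a genotype. Over 13849 genes the centred levels correlated at 0.18 for replicate 1, -0.27 for replicate 2 and -0.30 for replicate 3. These values cannot show whether such mice also shared a litter or a day, since other differences, such as sex, enter them too. The block changed no adjusted call. With a minimum count of 50, *Cish* was not tested. *Cish* had 15 to 33 counts per library, the fewest of the members, and each genotype had 3 mice.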

Other observations

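Of the 86 pathway genes tested, 20 (23.3%) were highest and 22 (25.6%) lowest in IL-4Rα-/- replicate 2, near the 24.8% and 23.4% of all genes tested. The genes below were chosen after their values were seen, because they were high in this library as *Socs3* was, and they do not set the pathway apart from other genes. *Osm*, the IL-6 family cytokine oncostatin M, was at 12.3 CPM there, 2.99 times the median of the other libraries. For *Osm*, IL-4Rα+/+ replicate 3 was high too, at 7.51 CPM. *Jak3*, the kinase of the common gamma chain, was at 107 CPM, or 2.06 times that median, although IL-4Rα+/+ replicate 3, at 91.1 CPM, was high as well. *Pim1*, a STAT-induced kinase, was at 296 CPM, 1.95 times the median. *Ptpn1*, a phosphatase of JAK2 and TYK2, was at 881 CPM and *Csf2rb*, the shared receptor chain for GM-CSF, IL-3 and IL-5, at 569 CPM, or 1.52 and 1.48 times the median. *Cish* and *Socs1* did not share this pattern, at 1.02 and 0.973 times the median, and *Socs2* was at 0.456 times. The summed level of neutrophil markers was 1042 CPM in this library and 369 to 685 CPM in the others, with 5 of 12 tested having an unadjusted edgeR p under 0.05, all higher in IL-4Rα-/- libraries, and their part in these values was not tested.

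The ratio of *Socs3* to *Stat3*, an inhibitor to the factor that induces it, was 0.230, 0.224 and 0.267 in the IL-4Rα+/+ and 0.219, 0.412 and 0.241 in the IL-4Rα-/- libraries. Outside IL-4Rα-/- replicate 2 it thus stayed between 0.219 and 0.267.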
